A study of Mus musculus with 3 samples.

Results

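Very long genes have introns that can be larger than whole ordinary genes, and the open sites inside them are described here in monocytes of the mouse, blood cells that give rise to macrophages. The sites were selected on the authors' peak calls and on gene annotation. Peaks of the longer deposited list of each library were merged where they overlapped by 1 bp. A merged autosomal region was kept when it held a peak of all 3 libraries and its midpoint lay in an intron of a protein-coding gene over 200 kb long, more than 1 kb from any coding transcription start site (TSS). This left 1826 sites out of 33722 autosomal regions with a peak of all 3 libraries, in coordinates of the mouse build mm10 and gene models of GENCODE M21. Because peak presence chose the sites, their number and their sharing between libraries are descriptions and were not tested.

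DNase-seq maps DNA that the nuclease DNase I can cut, which marks promoters, enhancers and other regulatory DNA cleared of nucleosomes. The series holds 1 group: 3 libraries of primary monocytes from virgin female adult mice, 2 months old, of the hybrid strain B6CASTF1/J, labelled biological replicates 1, 2 and 4. All 3 carry the same donor identifier and nothing says that separate animals were used, so the spread between libraries may be technical. No treatment or comparison group exists; differences between kinds of sites are given with the mean ± SD over the 3 libraries and the direction in each, since an exact sign-flip test over 3 libraries cannot give a two-sided p below 0.25. The lists held 54046, 42657 and 48980 peaks in replicates 1, 2 and 4. Read depth was not used here. Of 10 monocyte marker genes, 8 had a promoter with a peak in all 3 libraries (Csf1r, Cx3cr1, Spi1, Itgam, Fcgr3, Lyz2, Cd14 and Adgre4), against 51.8% of all autosomal coding genes, while Ccr2, a chemokine receptor of classical monocytes, had none in any library and Ly6c2 had one in some libraries but not in all. A peak in all 3 was found at 2 of 5 neutrophil markers (S100a8, Csf3r) and at 0 of 5 markers each of T cells, B cells, natural killer cells, erythroid cells, neurons and hepatocytes.

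Distal open sites in introns are commonly enhancers of the host gene or of a neighbour, or binding sites of the architectural protein CTCF. In the myeloid lineage many enhancers are bound by PU.1 (Spi1), an ETS-family factor, together with C/EBP, RUNX, AP-1 and IRF factors. Long genes with large introns are common among genes of neurons and of cell adhesion, and several span common fragile sites.

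The sequences below are picked examples and are RefSeq's, on the plus strand of GRCm38.p6, the same build as mm10. Capitals mark matches, on either strand, to any of 17 transcription factor motifs searched. A footprint is a stretch protected from cutting that the authors called, and a match is under it when they overlap by 1 bp or more. The first 3 sequences show the PU.1 motif GAGGAAGT under a footprint in all 3 libraries, the case for 8.20% of PU.1 matches in the sites. These 3 lie in introns of Rere (chr4:150566181-150566400), Zmiz1 (chr14:25646261-25646460) and Abr (chr11:76588071-76588270), and were chosen for that match after values were seen.
Rere: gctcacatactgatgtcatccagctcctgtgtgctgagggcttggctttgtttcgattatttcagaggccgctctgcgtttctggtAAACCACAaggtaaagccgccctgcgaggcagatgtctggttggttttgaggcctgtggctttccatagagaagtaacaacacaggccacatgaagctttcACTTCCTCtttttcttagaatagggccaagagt
Zmiz1: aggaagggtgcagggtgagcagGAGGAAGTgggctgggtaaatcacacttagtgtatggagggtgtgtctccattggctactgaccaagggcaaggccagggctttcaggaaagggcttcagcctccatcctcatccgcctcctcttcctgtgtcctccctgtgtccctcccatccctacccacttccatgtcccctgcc
Abr: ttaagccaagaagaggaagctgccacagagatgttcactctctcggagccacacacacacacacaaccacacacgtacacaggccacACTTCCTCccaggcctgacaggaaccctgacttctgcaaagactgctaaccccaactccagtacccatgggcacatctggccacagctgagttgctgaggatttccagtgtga
The Rere site also holds a RUNX match. The next 2 hold a CTCF match under a footprint in all 3 libraries. One is the tallest site of Abr, a gene with an open promoter (chr11:76577961-76578160), and the other is the tallest site of Pebp4, whose promoter was closed (chr14:69861501-69861680, chosen after values were seen).
Abr: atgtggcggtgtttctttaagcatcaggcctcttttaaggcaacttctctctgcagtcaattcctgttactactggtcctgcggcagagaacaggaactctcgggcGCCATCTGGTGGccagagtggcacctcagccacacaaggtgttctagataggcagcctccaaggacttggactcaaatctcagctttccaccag
Pebp4: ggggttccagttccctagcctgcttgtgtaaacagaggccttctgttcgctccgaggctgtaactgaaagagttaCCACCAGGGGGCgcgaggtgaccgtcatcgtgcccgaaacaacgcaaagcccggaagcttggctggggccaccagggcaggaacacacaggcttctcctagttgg
The third set shows the tallest site of Gse1, the single gene with most sites (central part, chr8:120563961-120564160), the tallest site in a gene with a closed promoter, Gm42906 (central part, chr5:151368491-151368690), and the tallest site by mean rank over libraries, which lies in both Cmss1 and Filip1l (chr16:57391321-57391420, chosen after values were seen). Of these, Gm42906 holds a GC box, and the printed stretches of the other two hold none of the 17 motifs.
Gse1: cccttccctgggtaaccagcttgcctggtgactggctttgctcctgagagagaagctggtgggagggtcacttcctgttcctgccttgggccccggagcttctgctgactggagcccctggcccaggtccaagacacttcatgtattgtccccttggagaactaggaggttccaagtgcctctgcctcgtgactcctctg
Gm42906: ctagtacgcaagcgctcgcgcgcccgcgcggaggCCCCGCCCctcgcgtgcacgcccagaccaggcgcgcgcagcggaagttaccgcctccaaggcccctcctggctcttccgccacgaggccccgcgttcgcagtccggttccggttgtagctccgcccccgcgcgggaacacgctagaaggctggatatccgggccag
Cmss1 and Filip1l: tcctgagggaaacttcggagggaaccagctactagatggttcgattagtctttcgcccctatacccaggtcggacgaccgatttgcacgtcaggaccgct

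Intronic open sites were sparse in very long genes, and most of them lay in a small number of genes. There were 953 such genes among 20807 autosomal coding genes, 4.58%. They held 44.2% of the intron sequence of coding genes but 19.9% of the shared intronic sites. A total of 483 of the 953 genes held no shared site and 150 held 1, while 124 genes held 5 or more and 38 held 10 or more. The density was 0.461 shared sites per 100 kb of intron in genes over 200 kb, against 1.47 in genes of 200 kb or less. Counted library by library, it was 0.764 ± 0.149 peaks per 100 kb in genes over 200 kb, against 2.16 ± 0.344 in genes of 200 kb or less (SD, n = 3). With sequence that lies in both kinds counted as long, the ratio of long over shorter genes was 0.365, 0.338 and 0.353 in replicates 1, 2 and 4, so the density was lower in very long genes in each library. Genes just inside the length threshold were Pcbp3 (200.03 kb, 1 site), Plcxd3 (200.06 kb, 0 sites) and Umad1 (200.18 kb, 1 site), and those just outside were Atp9b (199.92 kb, 2 sites), Morc1 (199.66 kb, 0 sites) and Clec16a (199.54 kb, 2 sites).

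The density fell with length over most of the range. It was 2.26 sites per 100 kb in genes up to 20 kb, 1.70 at 20 to 50 kb, 1.35 at 50 to 100 kb, 1.16 at 100 to 200 kb, 0.662 at 200 to 500 kb and 0.207 at 500 to 1000 kb. In the 55 genes over 1000 kb it was 0.292. That last value rests on a few annotation records that span many other genes. The record Gm20388 covers 4435 kb of chromosome 8 and 71 whole coding genes and held 121 sites, and the annotated Fgfr2 record covers 2961 kb and 29 coding genes and held 28. Altogether 16 records hold 5 or more other coding genes, a limit set after values were seen. Of the 1826 sites 140 lie in these records and in no other gene over 200 kb, though some of them lie in a shorter coding gene. Without the 16 records the density was 0.436 over all long genes and 0.0981 in genes over 1000 kb.

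**Figure D1:**
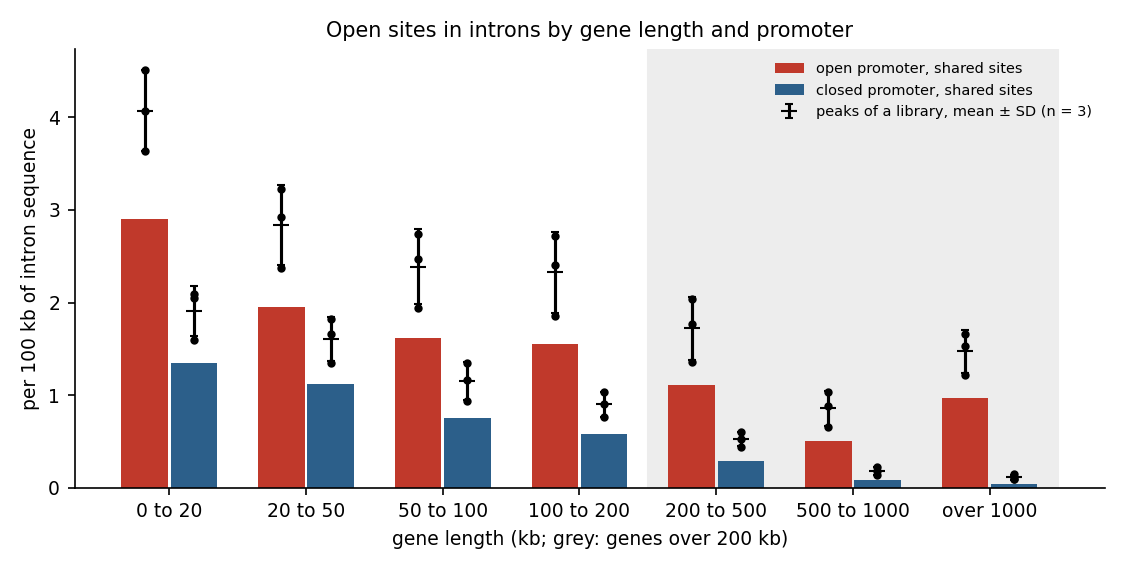
Shared open sites per 100 kb of intron (bars) by gene length in kb, for genes with an open promoter (red) and a closed promoter (blue); points are the peaks per 100 kb of each library, with the mean and SD over 3 libraries, and the grey area holds genes over 200 kb. The bars for open promoters stand above those for closed ones in every length class, and the bar for open genes over 1000 kb includes the Gm20388 and Fgfr2 records.

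Long genes with an open promoter held most of the sites. A promoter was called open where each library had a peak within 1 kb of a coding TSS of the gene and closed where no library had one. Of the 953 long genes 398 (41.8%) were open, against 51.8% of all autosomal coding genes, and 441 (46.3%) were closed, against 42.7%; 112 were mixed and 2 had no coding TSS. Among the genes with an open promoter 288 (72.4%) held at least 1 site, against 129 (29.3%) of those with a closed promoter. Open genes held 0.950 sites per 100 kb and closed genes 0.171, with a ratio of 5.75 where a site counts once for each gene that holds it. In single libraries the ratio was 4.77, 4.50 and 4.86, so open genes had the higher density in each. Genes of 200 kb or less went the same way, with 1.80 sites per 100 kb in open and 0.859 in closed genes. Of those shorter genes 29.3% of open and 10.7% of closed ones held a site. Per length class the open and closed densities were 1.11 and 0.295 at 200 to 500 kb and 0.501 and 0.0810 at 500 to 1000 kb. Over 1000 kb they were 0.975 and 0.0444, or 0.307 and 0.0444 without the records that span 5 or more genes. Counting each site once and giving an open host precedence, 1376 of the 1826 sites (75.4%) lay in an open gene, 332 in a closed one and 118 in a mixed one.

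The sites were concentrated in both kinds of gene. In open genes 51 of 398 held at least 50% of the sites, with a median of 2 sites per gene; in closed genes 29 of 441 did, with a median of 0. In the deposited false discovery rates of cutting, 407 of the 441 closed promoters had no interval listed below 0.05 in any library, and 0 had one below 0.001; those rates come from the same cuts as the peaks. Noncoding and partial transcripts change some calls. When every annotated transcript start of a gene counted as its promoter, a definition added after seeing the data, 390 of the 441 closed genes stayed closed with 217 sites in 91 genes, and 29 became open with 93 sites in 27 genes.

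**Figure D2:**
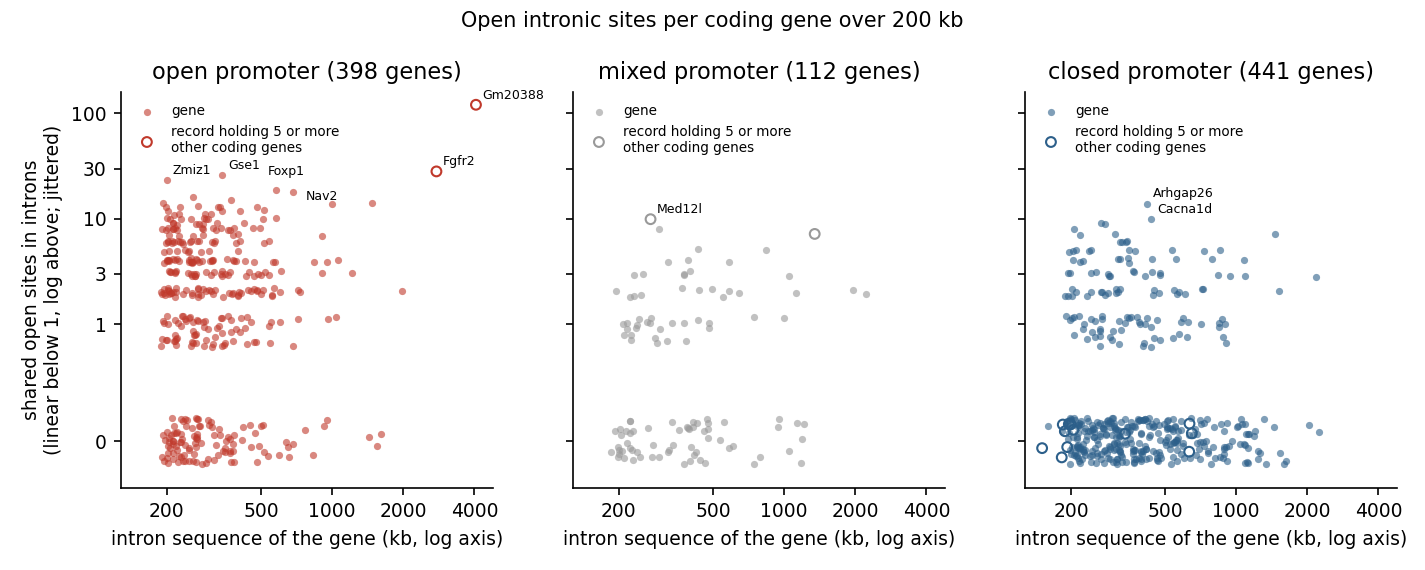
Shared open sites per gene (linear below 1, log above, jittered) against the gene's intron sequence in kb (log axis), for coding genes over 200 kb with an open, mixed or closed promoter; hollow points are records that hold 5 or more other coding genes. Genes with a closed promoter gather at 0 sites and reach 14, while open ones reach 26 (Gse1) apart from the Gm20388 and Fgfr2 records.

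Gse1, which encodes a coiled-coil protein of histone deacetylase corepressor complexes, held 26 sites in 353 kb, or 7.63 per 100 kb of intron, with 34, 27 and 32 peaks in replicates 1, 2 and 4. It lies inside the Gm20388 record. Peak counts given for a gene, here and below, cover only its introns, more than 1 kb from any coding TSS. Zmiz1, a transcriptional coactivator related to the PIAS proteins, held 23 sites in 208 kb and had the highest density of the long genes with 5 or more sites, 11.5 per 100 kb, with 37, 26 and 34 peaks. Foxp1, a forkhead transcription factor, held 19 (34, 22 and 25 peaks), and Nav2, a microtubule-binding navigator protein, held 18 (26, 19 and 26 peaks). Sgms1, which makes sphingomyelin, held 16 with 37, 18 and 30 peaks. Its replicate 2 count was the lowest, as it was for most of the genes with most sites, and replicate 2 had the shortest peak list. Neighbouring sites of Zmiz1 stood a median of 4.33 kb apart and those of Gse1 6.43 kb, against 36.3 kb in Foxp1 and 18.4 kb over all neighbouring sites of one gene.

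Several of the genes with most sites encode signalling proteins. Abr, a regulator of small GTPases, held 14 sites (7.28 per 100 kb), Fmnl2, an actin-nucleating formin, 13, Prkce, a protein kinase C isoform, 13, Tiam1, an exchange factor of Rac, 12, and Ralgps1, an exchange factor of Ral, 11. Cmip, an adaptor protein, held 13 at 6.59 per 100 kb. The cAMP phosphodiesterase Pde4d held 14 spread over 1504 kb, 0.945 per 100 kb. Others encode transcriptional regulators: Zfhx3, a zinc finger homeobox factor, held 14, Etv6, an ETS-family repressor, 13 (5.70 per 100 kb), Rere, an atrophin corepressor, 13, Bach2, a repressor best known in lymphocytes, 13, Maml3, a Notch coactivator, 12, and Runx1, a core factor of blood formation, 11 (5.11 per 100 kb). Tbxas1, thromboxane synthase, held 12 at 5.92 per 100 kb with 14, 13 and 18 peaks, and Rad51b, a recombination protein, 12. Arhgap26, a GTPase-activating protein, has 2 overlapping coding records, one open with 15 sites and one closed with 14, so a site shared by both counts for both. Gm20696, with 13 sites and no coding TSS, overlaps Foxp1. In all, 60 sites lay in more than 1 long gene.

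The 10 genes with a closed promoter and most sites held 6 to 14 sites each. Apart from the Arhgap26 record, Cacna1d, an L-type calcium channel subunit of neurons and endocrine cells, held 10 with 15, 12 and 14 peaks in replicates 1, 2 and 4. Rapgef4, a cAMP-activated exchange factor, held 9 (15, 10 and 15 peaks) and Acoxl, an acyl-CoA oxidase relative, 9 (12, 10 and 10 peaks). Pebp4, of the phosphatidylethanolamine-binding family, held 7 within 219.5 kb, with 10, 8 and 7 peaks. Rin2, an exchange factor of Rab5, held 8, Macf1, a crosslinker of actin and microtubules, 7, Magi2, a synaptic scaffold, 7, Frmd4b 6 and Msra, a methionine sulfoxide reductase, 6. The promoters of those last 5 genes count as open when all transcript starts are used, while Arhgap26, Cacna1d, Rapgef4, Acoxl and Pebp4 stay closed. Over closed hosts as a whole, the nearest coding TSS of another gene was a median of 144 kb away and belonged to an open gene for 208 of 332 sites (62.7%). For open hosts it was 135 kb and 837 of 1376 (60.8%). Of all autosomal coding genes 51.8% were open.

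At the other end stood the longest single genes. Ptprd (2271 kb, a receptor phosphatase of synapses), Lrp1b (2058 kb, a lipoprotein receptor relative), Csmd1 (1643 kb) and Nrxn3 (1612 kb, a neurexin of synapses) had a closed promoter and 0 shared sites. Single libraries gave Ptprd 1, 0 and 0 peaks, Lrp1b 1, 0 and 2, Csmd1 2, 0 and 0, and Nrxn3 1, 2 and 0. Lsamp, a neural adhesion molecule, held 3 in 2197 kb, and Cntnap2, Dlg2 and Macrod2 held 2 each. An open promoter did not always go with sites: 110 of the 398 open genes (27.6%) held none, Fhit (1612 kb; 5, 2 and 4 peaks) and Ctnna3 (1574 kb; 2, 1 and 2 peaks) among them.

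The genes were grouped by 4 gene lists. These were drawn up with earlier results of these data known, are described by their counts only and are read against 0.461 sites per 100 kb over all long genes, of which 49.3% held a site. Of 43 leukocyte signalling and actin regulators over 200 kb, 41 held a site, 37 had an open promoter, and the density was 1.27 per 100 kb (2.00 ± 0.413 peaks, SD, n = 3). The 2 without a site were Inpp4b, a phosphoinositide phosphatase, and Ptk2, focal adhesion kinase, both with an open promoter. Inpp4b had 3, 2 and 5 intronic peaks in replicates 1, 2 and 4, and Ptk2 had no intronic peak in any library. Of 41 genes listed as transcription and chromatin regulators, a list that also holds some RNA-binding proteins, 28 held a site and 23 were open, at 0.996 per 100 kb. Ebf1, the B-cell factor, was an open one with no shared site and 1, 0 and 0 peaks. Rbms3, an RNA-binding protein and the longest of those without a site, was closed.

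Neuronal adhesion and synapse genes were the largest list and the poorest in sites. Of 117 over 200 kb, 5 had an open promoter, 92 a closed one and 31 held a site. The density was 0.0857 per 100 kb (0.186 ± 0.0429 peaks, SD, n = 3). Beside Cacna1d and Magi2, the ones with most sites were Cacna1a, another calcium channel subunit, and Dlgap1, a postsynaptic scaffold, with 5 each. Pcdh15 (1550 kb) and Lrrc4c (1314 kb) had 0 shared sites. Among 25 genes of common fragile sites, a group set by replication and breakage rather than by tissue, 18 were open and 15 held a site, at 0.228 per 100 kb. Rad51b led them, with Tbc1d22a and Pard3 at 5 each and Vti1a at 4, and Immp2l (931 kb) was open with 0 shared sites and 0, 0 and 1 peaks.

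Within open genes the density was highest next to the promoter and lowest beyond 400 kb, but did not fall at every step. Leaving out the records that span many genes, open genes had 2.41 sites per 100 kb at 1 to 5 kb from a coding TSS of the host (91 sites), 1.24 at 5 to 10 kb (55 sites), 1.61 at 10 to 25 kb, 1.12 at 25 to 50 kb, 1.05 at 50 to 100 kb, 0.689 at 100 to 200 kb, 0.697 at 200 to 400 kb and 0.165 beyond 400 kb (19 sites). Closed genes had 0.129 at 1 to 5 kb (5 sites), 0.255 at 5 to 10 kb, 0.266 at 10 to 25 kb, 0.247 at 25 to 50 kb, 0.187 at 50 to 100 kb, 0.168 at 100 to 200 kb, 0.162 at 200 to 400 kb and 0.0854 beyond 400 kb (27 sites). In the longest coding transcript of each gene, the first intron held 1.76 times the density of later introns in open genes (353 of 1189 sites) and 0.750 times in closed genes (58 of 308). Over all 1826 sites the median distance from the nearest coding TSS of the host was 84.0 kb, with 55.5% within 100 kb. A total of 90 sites (4.93%) lay within 1 kb of the start of another annotated transcript, such as a noncoding one, against 3.64% of sites in introns of shorter genes; sites within 1 kb of a coding TSS had been left out of both.

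**Figure D3:**
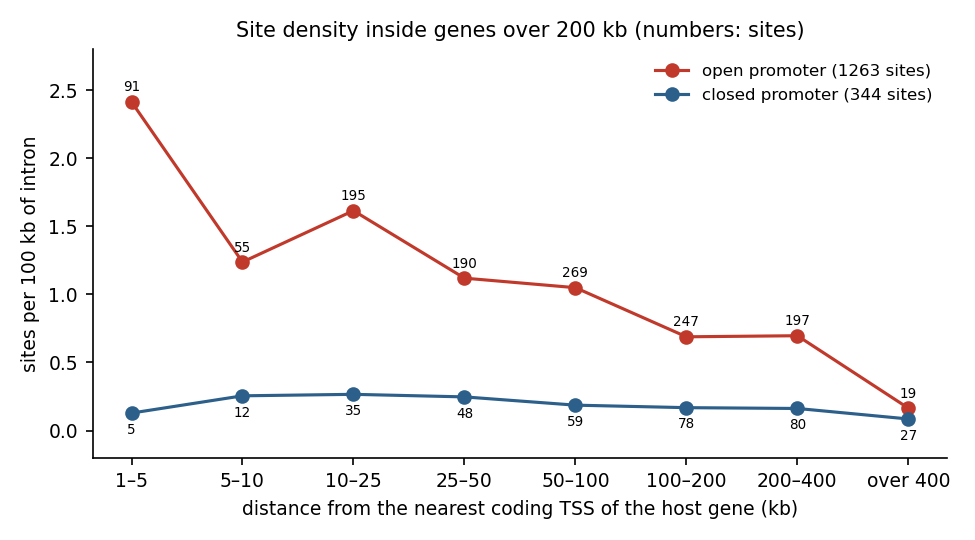
Sites per 100 kb of intron against distance from the nearest coding TSS of the host gene in kb, for genes over 200 kb with an open (red) or closed (blue) promoter, without records that hold 5 or more other coding genes; the number at each point counts its sites. The open line runs from 2.41 at 1 to 5 kb to 0.165 beyond 400 kb with a dip to 1.24 at 5 to 10 kb, while the closed line stays between 0.0854 and 0.266.

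Sites in long genes were lower peaks than other shared sites. Height is the authors' value of cutting signal at a peak, whose scaling is not given in the sources used here, so it is compared within a library only. The median height of the 1826 sites was 0.989, 0.798 and 1.09 in replicates 1, 2 and 4, against 1.17, 0.940 and 1.30 for 7357 sites in introns of shorter genes. The ratio was 0.844 ± 0.0055 (SD, n = 3) and below 1 in each library. Against 10422 intergenic sites it was 0.823 ± 0.0069 and against 13028 promoter sites 0.329 ± 0.021. Sites in open hosts were taller than those in closed hosts, with medians of 1.04, 0.842 and 1.14 against 0.882, 0.718 and 0.953. The ratio was 1.18 ± 0.012 and above 1 in each library. Open hosts here include the Gm20388 and Fgfr2 records, whose median heights were above that of open hosts, and a ratio without them is not given. Heights of one site varied between libraries with a median coefficient of variation of 18.7%, and across the 1826 sites, which share library and peak calling, Spearman correlations between libraries were 0.900, 0.885 and 0.874.

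**Figure D4:**
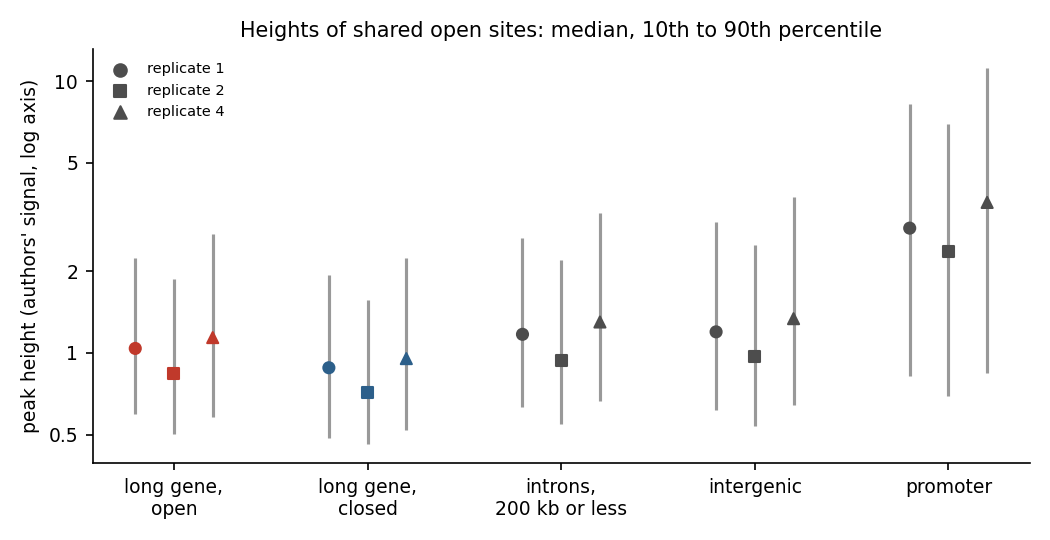
Peak height (authors' signal, log axis) of shared open sites in long genes with an open (red) and closed (blue) promoter, introns of genes of 200 kb or less, intergenic sites and promoters; each point is the median in 1 library and each line runs from the 10th to the 90th percentile. In each library the median for open long genes lies above that for closed ones, and both lie below the other 3 kinds of sites.

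The tallest sites stood far above those medians. The site inside Cmss1 and Filip1l reached 17.7, 16.3 and 20.3 in replicates 1, 2 and 4, and a site in an intron of Gphn, which encodes the scaffold protein gephyrin, reached 20.3, 16.8 and 19.2 (chr12:78350861-78351120). The sequence of the Cmss1 and Filip1l site, printed above, matched at least 12 other places on the assembled chromosomes with 95% or more identity over 80% or more of its length, and the Gphn site matched none there. Repeated genes that are not on those chromosomes in full, such as the ribosomal RNA arrays, and unplaced scaffolds were not compared, so no match does not show that either sequence is unique in the genome, and the 2 heights carry that limit. How the authors placed reads that match several places is not given in the sources used here, and the part of such copies in the heights was not tested. Of all 1826 sites 18 (0.986%) had such another place, 5 of them in Raet1e, and one in Pcdh9, a closed gene, was the sixth tallest site with a closed host by mean rank, at 4.79 ± 0.410 (SD, n = 3). Copies were sought for sites in long genes only. Without these 18 sites, too few to move a median by much, the height ratio to all sites of shorter genes was still 0.844.

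Other tall sites, for which no such copy was found, lay in both kinds of host. Gm42906, a gene with a closed promoter, held one of 9.85, 9.44 and 14.8 whose sequence, printed above, is rich in CG pairs and holds a GC box under a footprint in all 3 libraries. It lies 60 kb from a coding TSS of Gm42906 but 118 bp from the start of another annotated transcript. Fmnl2 held one of 7.64, 6.45 and 10.8, Prkce one of 7.85, 6.35 and 8.16 and Gse1 one of 7.24, 6.14 and 8.69. Acaca, acetyl-CoA carboxylase of fatty acid synthesis, had a promoter that was closed by its coding TSSs and open when all transcript starts are used, and a site of 6.38, 4.84 and 9.80 at 6.43 kb from its coding TSS. Col23a1, a transmembrane collagen, held one of 5.92, 5.11 and 8.48.

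A lower share of sites in long genes recurred between libraries. Of all merged autosomal regions, 54.7% had a peak of all 3 libraries; at places in long genes 40.7% of 4485 did, against 50.5% in introns of shorter genes. When regions were rebuilt from 2 libraries and read in the library left out, which rests on the same peak calls as the selection and is a description only, 96.5%, 75.8% and 91.4% of long-gene regions had a peak in replicates 1, 2 and 4, against 96.9%, 80.4% and 93.2% for shorter genes. The mean was 87.9 ± 10.8% against 90.1 ± 8.67% (SD, n = 3), and the long-gene share was the lower one in each library. These SDs are over the library left out, with replicate 2 lowest for both kinds. They are not the spread of the difference within a library, which was not tested. In the authors' shorter list, 56.7% of the 1826 sites were present in all 3 libraries, against 61.7% for shorter genes and 71.6% of all shared autosomal regions. Footprints in all 3 libraries were found in 75.8% of the sites, against 80.6% for shorter genes and 82.1% of all shared regions, while 0.548% (10 sites) had none in any library, against 0.816% for shorter genes and 1.82% of all shared regions. Within the long genes the share with footprints in all 3 was 77.7% in open hosts and 70.8% in closed hosts. Median heights were lower in the same groups, as given above, and the part of height in these shares was not tested.

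Motifs of factors known from myeloid enhancers were more frequent in the sites than in their flanks. Windows of 200 bp at the midpoints were searched on both strands for 17 motifs, with no test, and set against 3414 windows of the same length 1 kb away that touched no peak. The PU.1 motif GAGGAAGT was in 177 of the 1826 sites (9.69%), against 0.879% of the flanks, 8.98% of sites in shorter genes and 6.37% of all shared regions. The IRF-ETS composite, in which an IRF and an ETS factor bind side by side, was in 6.57%, against 1.85% of flanks and 5.60% of sites in shorter genes. AP-1 (TGANTCA) was in 11.7%, against 6.0% and 11.2%, RUNX (TGTGGTTT) in 3.34%, against 1.55% and 2.75%, the C/EBP motif TTGCNNAAT in 3.34%, against 1.79% and 2.88%, and the KLF motif CCACACCC in 4.71%, against 1.52% and 4.02%. The GATA motif AGATAAG and the E-box CAGGTG, searched as motifs of other lineages, did not stand above the flanks. The GATA motif was in 1.20% of sites and 2.81% of flanks, and the E-box in 12.3% and 14.5%. The ISRE was in 2.63% of sites and 2.64% of flanks. The windows differed in composition, with a median GC content of 51% in sites, 45.5% in flanks and 52% in sites of shorter genes, and its part in the shares was not tested. The GC box GGGCGGGG, common at promoters (26.1%), was in 2.36% of sites, and the ETS core CCGGAAGT, which can overlap other ETS matches, in 0.274% against 6.38% of promoters.

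CTCF matches had a lower share than in shorter genes and a share close to that over all shared regions. They were in 304 sites (16.6%), against 1.49% of flanks, 22.4% of sites in shorter genes, 23.2% of intergenic sites and 16.1% of all shared regions. In long genes they were in 15.3% of sites of open hosts and 20.8% of sites of closed hosts, while PU.1 matches were in 9.96% and 9.64%. The 2 kinds of match differed in footprints. Of the CTCF matches, 88.1%, 80.1% and 76.6% lay under a footprint in replicates 1, 2 and 4, a mean of 81.6 ± 5.91% (SD, n = 3), whereas of the PU.1 matches 27.3%, 25.7% and 24.0% did, a mean of 25.7 ± 1.64%. The footprints covered 13.2%, 10.1% and 10.7% of the windows' bases in these libraries. A match counted at 1 bp of overlap, so these shares of single bases are no baseline for matches, and none was computed. A match under a footprint in all 3 libraries was seen for 67.6% of CTCF matches and 8.20% of PU.1 matches. Other motifs lay on both sides of PU.1, with a mean share under a footprint of 56.9% for the GC box, 31.5% for the E-box CAGGTG and 18.3% for AP-1. For the E-box 19.7% of matches were under a footprint in all 3 libraries. A match is a run of letters and no evidence that the factor was bound.

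**Figure D5:**
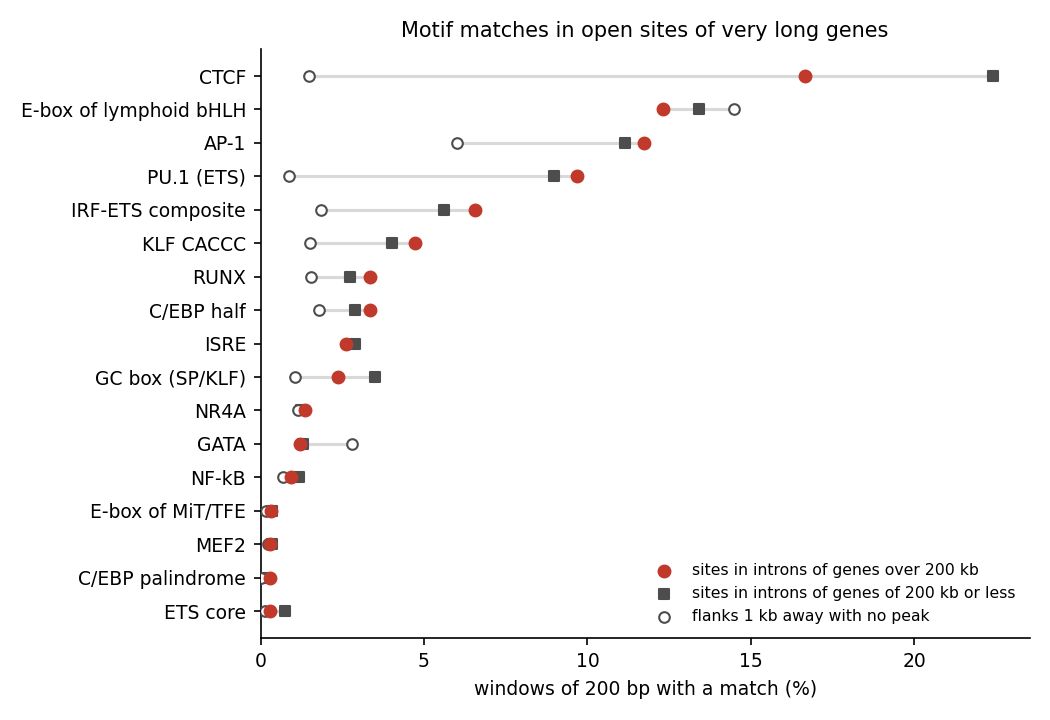
Share of 200 bp windows (%) with a match to each of 17 motifs in shared sites of genes over 200 kb (red), in shared sites in introns of genes of 200 kb or less (grey squares) and in flanks 1 kb away with no peak (hollow). PU.1 reaches 9.69% in long-gene sites against 0.879% in flanks, and CTCF 16.6% against 1.49%, with 22.4% in shorter genes.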

How the data were processed

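DNase-seq libraries of mouse monocytes were read from the files that the authors deposited for each library: 2 peak lists, a footprint list and a list of false discovery rates, all on mm10 per the labels and the names the authors gave the files. Peak height is a signal value that the authors deposited per peak, in steps whose scaling is not given in the sources used here; peaks were called per library. The deposited footprints carry 1 constant p-value of 0.01, so only their positions were used, and the deposited false discovery rates are p-value-like values listed below 0.05. No aligner or caller is named in the labels or files. Values in the lists are the authors' own; everything else was computed.

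The longer list of each library was merged (overlap of 1 bp), and midpoints were placed on the GENCODE M21 basic annotation. Intron sequence is gene sequence outside coding-gene exons and over 1 kb from coding TSSs. Sites and genes were handled in Python 3.11.15 with pandas 2.3.3 and bedtools 2.31.1, sequence was read from RefSeq's GRCm38.p6, and copies were sought with blastn 2.17.0. The placement code was run on simulated, well-separated peaks on some chromosomes, where 600 of 600 sites were recovered. Their places were drawn from the same annotation that classified them, so the annotation and the merging of offset peaks were not tested. Alternatives for peak list, height, overlap, gene length, distance, exons, hosts, promoters and libraries were tried. Genes are named by rank: the 25 with most sites, the 10 densest with 5 or more, the 10 closed with most, the 10 longest, list members by sites or length, and hosts of the 10 tallest sites. The sites and lists were chosen with earlier results of these data known. The motif letters of CTCF, ISRE and the IRF-ETS composite are not printed. Chromosome X was left out of the site set. Differences between kinds of site were not tested across sites, which share libraries.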

Additional observations from a re-analysis of the deposited data

How the results depend on the processing

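No paired analysis was possible because the libraries form 1 group, so no replicate number is shared between groups; kinds of site were set against each other within each library. Over 15 alternatives, the density stayed lower in long than in shorter genes, higher in open than in closed genes, and heights stayed lower in long genes. The authors' shorter list left 1034 sites (0.261 per 100 kb; long over shorter 0.287; open over closed 6.496; open genes with a site 60.6%, closed 20.6%; height ratio 0.881; footprints in all libraries 91.5%). The taller 50% of peaks left 619 sites (0.156; 0.236; 8.41; 46.2% and 14.8%; 0.944; 95.6%, in the same order). Without peaks under a height of 0.4 the open over closed ratio was 6.07 and the height ratio 0.854. Requiring all libraries to cover 50% of the region gave a long over shorter ratio of 0.294, 66.6% of open genes with a site, a height ratio of 0.866 and footprints in 84.8%.

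Genes over 100 kb held 3889 sites at 0.679 per 100 kb, with ratios of 0.416 to shorter genes and 4.62 for open over closed, 67.5% of open genes with a site and a height ratio of 0.837. Genes over 300 kb held 999 sites, with ratios of 0.240 and 6.10 and a height ratio of 0.830. More than 5 kb from a coding TSS these 3 values were 0.337, 5.50 and 0.864, and in sequence of 1 coding gene only 0.296, 5.54 and 0.834. Using the most upstream coding TSS alone, open over closed was 4.30.

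An alternative added after seeing the data left out records holding 5 or more other coding genes, with 0.296, 5.30 and 0.821 for those 3 values. Another, also added after seeing the data, used all transcript starts as promoters and gave 7.99 for open over closed, with 23.3% of closed genes holding a site. The cause of these shifts was not tested. Leaving out 1 library gave 1888 to 2410 sites at 0.476 to 0.608 per 100 kb, long over shorter 0.313 to 0.332, open over closed 5.44 to 5.70, open genes with a site 73.4% to 78.6%, closed 30.6% to 34.6%, height ratios of 0.820 to 0.843 and footprints in 76.6% to 79.2%. Leaving out exons of all gene types moved none of the 8 results past the spread between libraries. Peak lists end at the authors' thresholds, so an absent site means no called peak, not closed DNA.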

Other observations

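Chromosome X, left out of the site set, holds 45 coding genes over 200 kb with 26 shared sites by the same placement, 0.129 per 100 kb of intron. Mid1, a microtubule-associated ubiquitin ligase, held 10 of them and Sh3kbp1, an adaptor of receptor endocytosis, 5, both with an open promoter; Nhsl2, with a closed promoter, held 3. The libraries are of female mice.

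Among records with a mixed promoter, where only some libraries had a peak, 51 of 112 genes held a site, at 0.225 per 100 kb. Med12l, a Mediator subunit relative whose record holds 5 other coding genes, had 10 sites there, with 12, 12 and 14 peaks in replicates 1, 2 and 4.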
